A study of Rattus norvegicus with 12 samples.

Results

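Glucose enters a fat cell through facilitative transporters and is broken down to pyruvate and lactate by the enzymes of glycolysis. The genes described here are 10 members of that route, in pathway order: the transporters Slc2a4 and Slc2a1, the hexokinases Hk1 and Hk2, glucose-6-phosphate isomerase Gpi, liver-type phosphofructokinase Pfkl, aldolase Aldoa, phosphoglycerate kinase Pgk1, phosphoglycerate mutase Pgam1 and lactate dehydrogenase Ldha. They were picked by gene symbol in the platform annotation, and all 10 were found among the 14217 genes that a probe set names by 1 symbol. Each was read from its brightest probe set on the array, and all 10 passed the filter on dim probe sets.

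RNA of epididymal white adipose tissue, the fat pad beside the epididymis, was measured in rats aged 24 weeks on Affymetrix rat arrays, 4 arrays and 4 samples in each group. AL were Jcl:Wistar (-/-) rats without the transgene, fed ad libitum. CR were Jcl:Wistar (-/-) rats that received 70% of the energy intake from 6 weeks of age, and Tg were dwarf rats heterozygous for an anti-sense growth hormone (GH) transgene and fed ad libitum. In all 3 groups food was given 30 minutes before the lights went off, and rats were killed the next morning with the lights on again. The genotype field reads Jcl:Wistar (-/-) for the Tg samples too, so the groups rest on the titles and source names, and the labels used here do not name the promoter of the transgene.

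Slc2a4 encodes GLUT4, which insulin brings from stored vesicles to the surface of fat and muscle cells, and Slc2a1 encodes GLUT1, which works in most cell types without insulin. Hexokinases trap glucose as glucose 6-phosphate, and Hk2 is the form typical of insulin-responsive tissues. In fat, the triose phosphates made below aldolase also supply glycerol 3-phosphate for triglyceride, and pyruvate supplies carbon for fatty acids.

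The promoter windows of Hk2, Aldoa and Ldha are shown because Hk2 and Aldoa were 2 of the 3 members that rose under restriction, and Ldha held the motif that was rarest among the members. Each window runs from 250 bases before to 50 bases after an annotated start (RefSeq, build GRCr8), on the gene's strand. Capitals mark ACGTG, the core bound by hypoxia-inducible factors, CACGTG, an E-box that contains it, and GGGCGG, the GC box, searched on both strands. The Hk2 window lies at chr4:116841226-116841525 on the minus strand, the first Aldoa window at chr1:190836728-190837027 on the minus strand, and the Ldha window at chr1:106507842-106508141 on the plus strand.
Hk2: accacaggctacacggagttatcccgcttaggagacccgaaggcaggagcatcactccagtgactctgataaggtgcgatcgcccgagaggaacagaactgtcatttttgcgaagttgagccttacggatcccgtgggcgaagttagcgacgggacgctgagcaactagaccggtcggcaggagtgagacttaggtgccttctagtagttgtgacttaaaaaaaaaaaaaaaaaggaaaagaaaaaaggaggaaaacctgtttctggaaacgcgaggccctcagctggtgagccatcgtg
Aldoa: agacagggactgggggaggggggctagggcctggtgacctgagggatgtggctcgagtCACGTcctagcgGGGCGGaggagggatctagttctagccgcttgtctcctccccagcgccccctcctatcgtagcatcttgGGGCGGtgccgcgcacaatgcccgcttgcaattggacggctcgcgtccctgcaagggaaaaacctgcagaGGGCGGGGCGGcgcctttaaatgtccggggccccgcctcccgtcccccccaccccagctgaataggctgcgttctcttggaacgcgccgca
Ldha: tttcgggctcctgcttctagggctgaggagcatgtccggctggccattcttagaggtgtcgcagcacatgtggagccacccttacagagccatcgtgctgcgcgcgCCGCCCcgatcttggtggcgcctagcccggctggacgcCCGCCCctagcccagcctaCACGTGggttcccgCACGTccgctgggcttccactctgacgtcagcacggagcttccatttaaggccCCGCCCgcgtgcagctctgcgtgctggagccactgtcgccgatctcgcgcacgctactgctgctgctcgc

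The Hk2 window held none of the 3 motifs. Aldoa had 3 windows, and the one shown held 1 ACGTG, 192 bases before the start, and 4 GGGCGG, of which the nearest pair share a base and begin 41 and 36 bases before the start; its other 2 windows, and the second window of Hk1, held none of the motifs. The Ldha window held 1 CACGTG, 87 bases before the start, 3 ACGTG, of which 2 lie within the CACGTG on opposite strands, and 3 GGGCGG. Of the members, 8 had a window in the table, with 11 windows between them; Slc2a4 and Pgk1 had none. ACGTG occurred in 6 of the 11 windows, from 6 members, GGGCGG in 7 of the 11, from 7 members, and CACGTG in 1. Among all 33469 windows of the table, 19.3% held ACGTG, 33.1% held GGGCGG and 6.42% held CACGTG. These matches are letters in a window and were not tested as binding sites.

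The arrays carried fat throughout, with transcripts of neighbouring tissues on some of them. The mean log2 intensity of 8 adipocyte markers lay between 13.45 and 14.05 on all 12 arrays. It ran from 13.58 to 14.05 in AL, 13.73 to 13.99 in CR and 13.45 to 13.89 in Tg. All 8 had lower means in Tg than in AL. In CR, 6 were higher and 2 lower than in Tg, and 5 higher and 3 lower than in AL, with 0 past the threshold. Spermatid markers (7 of 8 measured) averaged 12.07 on AL1, 13.20 on AL2, 10.86 on CR1 and 12.52 on Tg2, and at most 8.03 on the others. Markers of duct epithelium (8 of 8) averaged 10.27 on AL3, 10.73 on CR2, 10.87 on CR4, 10.75 on Tg2, 10.90 on Tg4 and 8.96 on Tg3; the remaining 6 arrays were at 8.14 or lower. Caput epididymis markers stood at 10.54 on CR4 and pancreas markers at 12.88 on Tg1. Macrophage markers (8 of 8) averaged 11.14 to 11.34 in AL, 10.52 to 10.80 in CR and 10.997 to 11.38 in Tg. Of the 8, 5 fell in CR against AL, where 0.816% of all probe sets fell. Among the 5 was Ptprc, a leukocyte phosphatase, by 0.74. Fibroblast and matrix markers (7 of 7) averaged 12.97 to 13.28 in AL, 12.75 to 12.87 in CR and 12.89 to 13.37 in Tg, and all 7 had lower means in CR than in either other group, with 0 past the threshold. Endothelial markers (6 of 7 measured) averaged 10.40 to 10.73 in AL, 10.19 to 10.61 in CR and 10.34 to 10.56 in Tg, with 5 of the 6 lower in CR than in AL and 0 past the threshold. The part of these cells in the differences between CR and the other groups was not tested. On CR3, 5.71% of the probes were blank, against 0.324% to 1.88% elsewhere.

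CR and AL were both rats without the transgene on different diets, and their comparison shows the members under restriction. Of the 10 members 3 rose in CR: the transporter Slc2a4, the hexokinase Hk2 and the aldolase Aldoa. None fell, and 9 of the 10 had a higher mean in CR, with a median log2 difference of 0.24 against -0.00083 over all 23274 probe sets tested. At an adjusted p under 0.05, 0.636% of all probe sets rose in CR and 0.816% fell. The arrays of CR lay wholly above those of AL for 4 members, the 3 named and Pgam1, and for 4.3% of all probe sets. In RNA of whole tissue, a change in the number of cells of a type and a change in RNA per cell cannot be told apart.

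**Figure D1:**
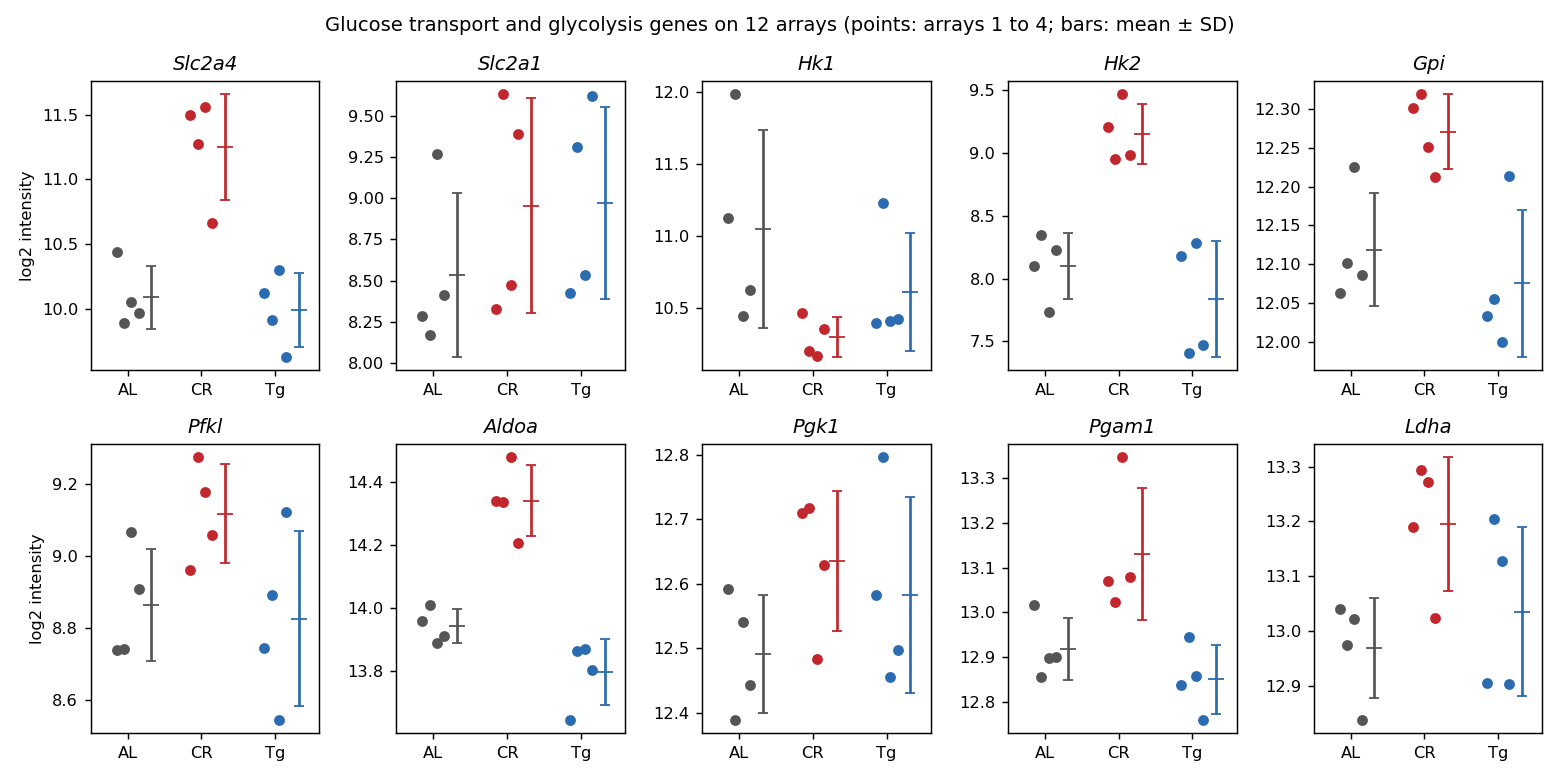
Log2 intensity of the 10 members on each array, with arrays 1 to 4 of AL (ad libitum), CR (restricted) and Tg (anti-sense GH) as points from left to right and the group mean ± SD beside them; each panel has its own scale. For Slc2a4, Hk2, Aldoa and Pgam1 all 4 CR points lie above all AL and Tg points, while Slc2a1 splits into high and low arrays within each group.

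Slc2a4, the insulin-responsive transporter, had log2 intensities of 10.44, 9.89, 10.05 and 9.96 on AL1 to AL4. It had 11.50, 11.27, 11.56 and 10.66 on CR1 to CR4, and 10.12, 9.91, 10.30 and 9.62 on Tg1 to Tg4. All CR arrays were above all others, CR4 was the lowest of them, and AL and Tg overlapped. The mean was 11.25 ± 0.41 in CR against 10.09 ± 0.25 in AL (SD, n = 4), a 2.24-fold rise (log2 difference 1.16, SE 0.21, adjusted p = 0.0278). A second Slc2a4 probe set rose by 1.26 (adjusted p = 0.0174), and all 11 probes of the brighter set were higher in CR, by 0.80 to 1.39 on the log2 scale.

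Slc2a1, the transporter that works without insulin, was high on 5 of the 6 arrays with duct epithelium transcripts, all but Tg3. It stood at 9.27 on AL3, 9.63 on CR2, 9.39 on CR4, 9.31 on Tg2 and 9.62 on Tg4. On the other 7 arrays it lay between 8.17 (AL2) and 8.53 (Tg3). The groups overlapped fully, with means of 8.53 ± 0.50 in AL, 8.95 ± 0.65 in CR and 8.97 ± 0.58 in Tg (SD, n = 4). CR differed from AL by 0.42 (SE 0.37, adjusted p = 0.596) and Tg from AL by 0.44 (adjusted p = 0.831). With both marker scores (spermatid and duct epithelium) as covariates, the difference of CR from AL was -0.0005 (SE 0.098) and that of Tg from AL -0.10. Without AL3, CR2, CR4, Tg2, Tg3 and Tg4, a setting added after the data were seen, CR differed from AL by 0.11.

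Hk1, the hexokinase of most tissues, was highest on 3 of the 4 arrays with spermatid transcripts. It read 11.12, 11.99, 10.45 and 10.63 on AL1 to AL4. It read 10.46, 10.20, 10.17 and 10.35 on CR1 to CR4, and 10.39, 11.23, 10.41 and 10.42 on Tg1 to Tg4. AL1, AL2 and Tg2 stood above every other array, and CR1, the remaining array with those transcripts, was the highest of the CR arrays. The mean was 11.05 ± 0.69 in AL and 10.30 ± 0.14 in CR (SD, n = 4), a difference of -0.75 that did not pass the test (SE 0.30, adjusted p = 0.233). Without AL1, AL2, CR1 and Tg2 it was -0.30 (adjusted p = 0.279), and with both marker scores as covariates -0.47 (adjusted p = 0.0962). A second Hk1 probe set differed by -0.14.

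**Figure D2:**
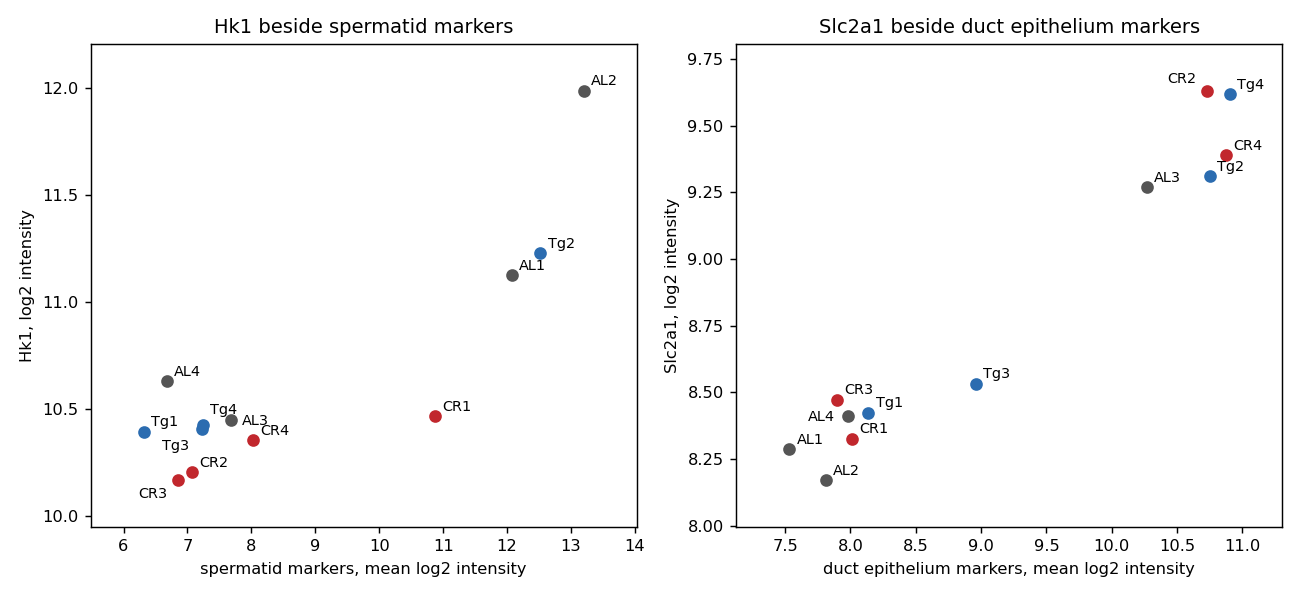
Log2 intensity of Hk1 against the mean log2 intensity of 7 spermatid markers (left) and of Slc2a1 against that of 8 duct epithelium markers (right), 1 labelled point per array. Hk1 is at 11.12 to 11.99 on AL1, AL2 and Tg2, the 3 arrays furthest right, and Slc2a1 is at 9.27 to 9.63 on the 5 arrays furthest right.

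Hk2, the hexokinase of insulin-responsive tissues, rose in CR. It read 8.10, 8.34, 7.73 and 8.22 on AL1 to AL4. It read 9.20, 8.95, 9.47 and 8.98 on CR1 to CR4, and 8.18, 7.41, 8.28 and 7.47 on Tg1 to Tg4. All CR arrays were above all others. Within each group the arrays with the most duct epithelium transcripts were the low ones, AL3 in AL, CR2 and CR4 in CR, and Tg2 and Tg4 in Tg. The mean was 9.15 ± 0.24 in CR against 8.10 ± 0.26 in AL (SD, n = 4), a 2.07-fold rise (log2 difference 1.05, SE 0.22, adjusted p = 0.0435). All 11 probes were higher in CR, by 0.56 to 1.45, and on each of the 11 the CR arrays lay above the AL arrays.

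Gpi and Pfkl carry glucose 6-phosphate to fructose 1,6-bisphosphate, and neither passed the test. Gpi ranged between 12.06 and 12.23 in AL, between 12.21 and 12.32 in CR and between 11.999 and 12.21 in Tg. CR differed from AL by 0.15 (SE 0.06, adjusted p = 0.263), and all 11 Gpi probes were higher in CR. Pfkl ranged between 8.74 and 9.07 in AL, between 8.96 and 9.28 in CR and between 8.54 and 9.12 in Tg, with a difference of 0.25 between CR and AL (SE 0.13, adjusted p = 0.334). For both genes the ranges of the groups overlapped.

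Aldoa, which splits fructose 1,6-bisphosphate into triose phosphates, also rose in CR. It read 13.96, 14.01, 13.89 and 13.91 on AL1 to AL4. It read 14.34, 14.34, 14.48 and 14.21 on CR1 to CR4, and 13.64, 13.86, 13.87 and 13.80 on Tg1 to Tg4. The 3 groups did not overlap, with CR above AL and AL above Tg. CR exceeded AL 1.32-fold (log2 difference 0.40, SE 0.08, adjusted p = 0.039), and all 11 probes were higher in CR. Of the probe values of Aldoa, 5 exceeded the deposited saturation level, 2 on AL4, 1 on CR1 and 2 on CR2. Whether this altered the difference between CR and AL, and in which direction, was not tested.

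Pgk1, Pgam1 and Ldha act below the triose phosphates, at the first ATP-forming step, at the mutase step and in making lactate from pyruvate. Pgam1 read 13.02, 12.85, 12.90 and 12.90 on AL1 to AL4 and 13.07, 13.02, 13.35 and 13.08 on CR1 to CR4. All 4 CR arrays of Pgam1 were above AL, by a narrow margin for CR2 over AL1, and the difference of 0.21 did not pass the test (SE 0.08, adjusted p = 0.214). Pgk1 ranged between 12.39 and 12.59 in AL, between 12.48 and 12.72 in CR and between 12.45 and 12.80 in Tg. CR differed from AL by 0.14 for Pgk1 (SE 0.09, adjusted p = 0.441), and a second Pgk1 probe set differed by 0.18 (adjusted p = 0.204). Ldha ranged between 12.84 and 13.04 in AL, between 13.02 and 13.29 in CR and between 12.90 and 13.21 in Tg, with a difference of 0.23 between CR and AL (SE 0.09, adjusted p = 0.245). Probes of Ldha were less uniform than those of Aldoa, with 8 of 11 higher in CR and a median probe difference of 0.04.

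**Figure D3:**
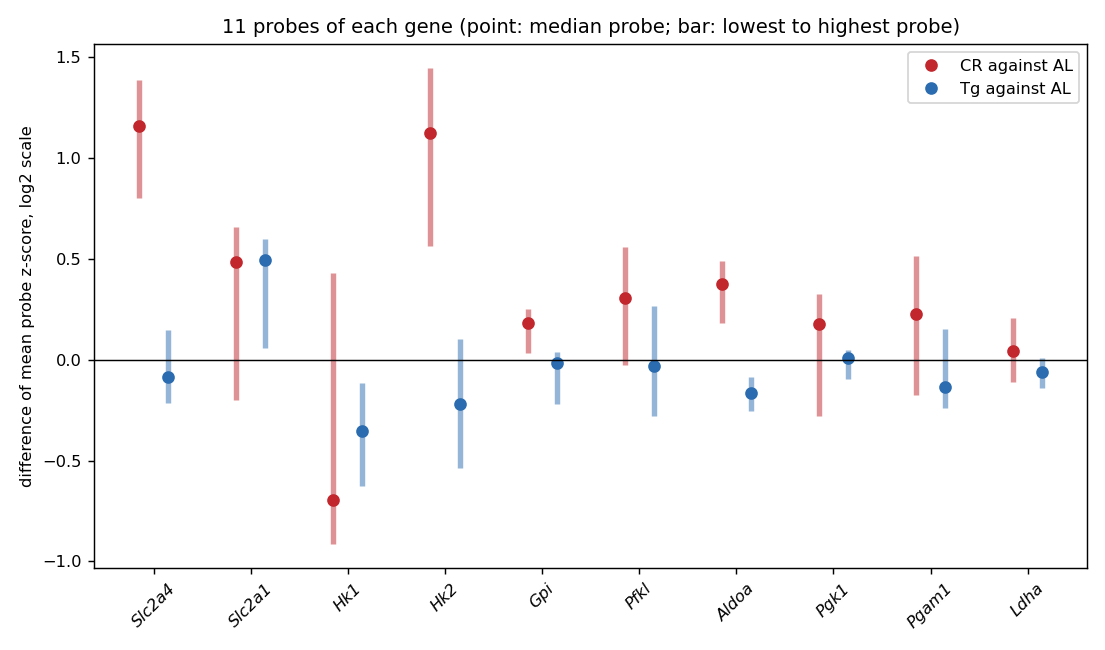
Difference in mean probe z-score, put on a log2 scale, for the 11 probes of each member's brightest probe set: the point is the median probe and the bar runs from the lowest to the highest probe, for CR against AL (red) and Tg against AL (blue). The red bars of Slc2a4, Hk2, Gpi and Aldoa lie wholly above 0, and the blue bars of Hk1 and Aldoa lie wholly below 0.

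The calls in CR against AL were lost when some arrays were left out. Without AL1, AL2, CR1 and Tg2 the differences were 1.16 for Slc2a4, 1.16 for Hk2 and 0.44 for Aldoa, and none passed (adjusted p from 0.203 to 0.244). Leaving out any 1 of AL2, AL3, AL4, CR1, CR2 or CR3 ended the Slc2a4 call (adjusted p from 0.0531 to 0.0957), while leaving out any 1 AL or CR array ended that of Hk2 (0.0531 to 0.113). Leaving out any 1 array other than CR4 and Tg1 ended that of Aldoa (0.0507 to 0.127). Without CR4 and Tg1, Hk2 did not pass (1.11, adjusted p = 0.0652), and Slc2a4 (1.36, adjusted p = 0.008) and Aldoa (0.44, adjusted p = 0.0292) did. Without AL3, CR2, CR4, Tg2, Tg3 and Tg4, Slc2a4 (1.43, adjusted p = 0.0272) and Hk2 (1.11, adjusted p = 0.028) passed and Aldoa (0.45, adjusted p = 0.189) did not. With both marker scores as covariates all 3 passed (adjusted p = 0.00279 for Slc2a4, 0.000642 for Hk2 and 0.0176 for Aldoa). The signs stayed the same in all these settings.

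Tg and AL both ate freely, and between them no member passed the test. Of the 10 members, 7 had a lower mean in Tg and 3 a higher one, with a median of -0.06 against -0.0075 over all probe sets. The share of all probe sets called in either direction was 0%, with 1385 at an unadjusted p under 0.05 and, by median polish of the probe values, 2 called. Slc2a4 differed by -0.10 (95% interval -0.55 to 0.35, adjusted p = 0.916) and Hk2 by -0.26 (-0.74 to 0.21, adjusted p = 0.828). These intervals do not reach the differences seen under restriction, 1.16 and 1.05. Aldoa was lower in all 4 Tg arrays than in any AL array, by 0.15 in the mean (SE 0.08, adjusted p = 0.827), and 4.39% of all probe sets had groups that did not overlap in one direction or the other. Hk1 differed by -0.43 (adjusted p = 0.827), and its Tg2 value of 11.23 stood far from 10.39 to 10.42 on the other Tg arrays. Gpi differed by -0.04, Pfkl by -0.04 and Pgam1 by -0.07, while Pgk1 was at 0.09 and Ldha at 0.07.

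The comparison of CR with Tg sets restriction beside the transgene and is also the test of whether their differences from AL are unequal. Slc2a4, Hk2 and Aldoa were higher in CR than in Tg, against 0.735% of all probe sets. Slc2a4 was 2.39-fold higher (log2 difference 1.26, SE 0.21, adjusted p = 0.0192) and Hk2 2.49-fold higher (1.32, SE 0.22, adjusted p = 0.0192). Aldoa was 1.46-fold higher (0.55, SE 0.08, adjusted p = 0.0121). Arrays did not overlap for these 3 and Pgam1, 4 of 10, against 5.02% of all probe sets; Pgam1 differed by 0.28 (adjusted p = 0.115). Gpi differed by 0.20 (adjusted p = 0.16), Pfkl by 0.29 (0.265), Ldha by 0.16 (0.412) and Pgk1 by 0.05 (0.821). The second Pgk1 probe set differed by 0.21 (adjusted p = 0.145), with all 4 CR arrays above Tg. Slc2a1 differed by -0.02 (0.991) and Hk1 by -0.32 (0.639).

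The replicate numbers of the CR and Tg arrays met the rule for pairing used here. Even so, the deviations of CR2 correlated most with those of Tg4, and those of CR3 with Tg1. A fit of all 12 arrays, the AL arrays included, took the number as a block. In that fit Slc2a4 (adjusted p = 0.0111) and Aldoa (0.0382) passed while Hk2 did not (0.0513). On the 8 CR and Tg arrays alone with the block, a setting added after the data were seen, Slc2a4 (0.0102) and Hk2 (0.0149) passed and Aldoa (0.0655) did not. The block on 12 arrays lowered the count of probe sets called from 291 to 119. Without AL1, AL2, CR1 and Tg2 none of the 3 passed (adjusted p from 0.235 to 0.244). Without the 6 arrays with duct epithelium transcripts, the only Tg array left was Tg1, which carried pancreas transcripts. The differences were then 1.41 for Slc2a4, 1.16 for Hk2 and 0.77 for Aldoa. Leaving out any 1 of CR1, CR2, CR3, Tg2 or Tg4 ended the Slc2a4 call (0.0516 to 0.0682), and any 1 of CR1, CR3, Tg2 or Tg4 that of Hk2 (0.0541 to 0.0681). With median polish of the probe values Pgam1 also passed (0.33, adjusted p = 0.0209).

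**Figure D4:**
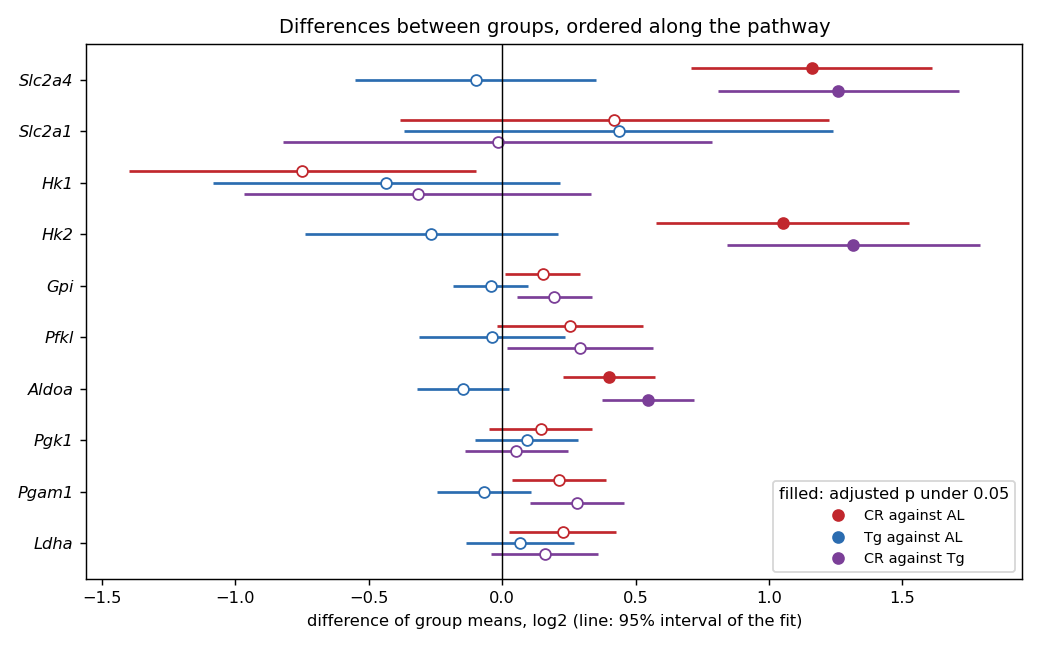
Differences between group means on the log2 scale for the 10 members in pathway order, with the 95% interval of the fit as a line and filled points where the adjusted p is under 0.05. The filled points are those of Slc2a4, Hk2 and Aldoa in CR against AL and CR against Tg, and no point of Tg against AL is filled.

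Other enzymes of glycolysis showed few calls. Of 24 listed, 18 were tested, and in CR against AL 13 were higher and 0 passed, with a median of 0.12. Eno1, an enolase, was above AL on all 4 CR arrays, 1.74-fold in the mean, and did not pass (0.80, SE 0.20, adjusted p = 0.0745). It passed without AL3, CR2, CR4, Tg2, Tg3 and Tg4 (0.88, adjusted p = 0.0319) and with both marker scores as covariates (0.69, adjusted p = 0.0304). In CR against Tg, Eno1 was at 0.49 (adjusted p = 0.247) and the arrays overlapped. It read 13.18 on Tg2 and 13.16 on Tg4, the Tg arrays with the most duct epithelium transcripts. On Tg1 and Tg3 it read 12.31 and 12.37. In CR against AL, Gpd1, which makes glycerol 3-phosphate from a triose phosphate, was at 0.43 (adjusted p = 0.127). Against Tg, Gpd1 was 1.62-fold higher in CR (0.69, SE 0.13, adjusted p = 0.0307). Gpd1 was the 1 of 18 that passed there, against 0.735% of all probe sets. Its call was lost with the replicate number as a block, on 12 arrays (adjusted p = 0.0513) and on the 8 CR and Tg arrays alone (0.0543), and in 13 of 26 alternatives in all. In Tg against AL 0 passed, with Gpd1 at -0.27 and Bpgm, which makes 2,3-bisphosphoglycerate, at 0.26 (both adjusted p = 0.827).

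Enzymes that set fructose 2,6-bisphosphate or run the route backwards had 9 of 11 tested and 0 that passed in any comparison. Pfkfb4, which makes and breaks fructose 2,6-bisphosphate, was above AL on all 4 CR arrays (0.49, adjusted p = 0.0984) and at 0.49 against Tg (0.108). Pck1, which makes phosphoenolpyruvate from oxaloacetate, was lower on all 4 CR arrays than in AL. It read 12.61, 11.27, 13.73 and 12.94 on CR1 to CR4, against 13.90 to 14.07 in AL and 13.58 to 13.97 in Tg. CR differed from AL by -1.33 (SE 0.38, adjusted p = 0.111) and from Tg by -1.20 (adjusted p = 0.146). In Tg against AL, Fbp2, a fructose bisphosphatase, was at 1.57 with an SE of 0.92, and Pfkfb2 at 0.25 (both adjusted p = 0.827). Fbp2 read 9.19 on AL3, 9.71 on CR2, 9.36 on CR4, 9.69 on Tg2 and 9.80 on Tg4, arrays with duct epithelium transcripts, and 5.96 to 6.65 on the other AL arrays. With both marker scores as covariates its difference between Tg and AL was 0.27.

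Among 12 other carriers tested of 15 listed, 1 fell and 0 rose in CR against AL. Of all probe sets, 0.816% fell and 0.636% rose. The 1 that fell was Slc2a13, which carries myo-inositol with protons and not glucose. It fell by 0.55 (SE 0.11, adjusted p = 0.0441), with all 4 CR arrays below AL, and 21 of 25 alternatives ended the call, the omission of any single array among them (adjusted p from 0.0504 to 0.137). Against Tg none passed, with Slc16a1, the monocarboxylate transporter MCT1, at 0.68 (adjusted p = 0.125) and Slc2a13 at -0.35 (0.154). In Tg against AL none passed, with Slc2a6 at -0.25 and Slc2a13 at -0.19 (both adjusted p = 0.827).

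Genes whose proteins move GLUT4 vesicles, listed together with the insulin signalling genes Insr, Irs1, Irs2, Akt2 and Pik3r1, had no call. Of 24 listed, 21 were tested and 0 passed in any comparison. In CR against AL 15 were lower, with a median of -0.09. Vamp2, a SNARE of the vesicle, was at -0.35 (adjusted p = 0.0944), and Trip10, which binds the small GTPase TC10, at -0.31 (0.10). All 4 CR arrays were below AL for both, and for Rab10, the GTPase that carries GLUT4 vesicles to the surface in mouse fat cells. Rab10 was at -0.14 (adjusted p = 0.291). The share of all probe sets lying wholly lower in CR was not counted, here or for Pck1 and Slc2a13. Against Tg, Rab10 was at -0.25 (adjusted p = 0.0851) and Trip10 at -0.30 (0.116). In Tg against AL, Rala was at -0.19 and Rab10 at 0.11 (both adjusted p = 0.827).

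Of 16 transcription factors named in the control of these genes, 15 were tested. In CR against AL 1 rose, against 0.636% of all probe sets. Mlxipl, the carbohydrate response factor ChREBP, read 8.88, 9.08, 8.30 and 8.32 on AL1 to AL4. It read 10.31, 10.18, 10.28 and 9.36 on CR1 to CR4, and 8.52 to 8.77 in Tg. CR lay above both other groups, with CR4 lowest, as for Slc2a4. The rise over AL was 2.62-fold (1.39, SE 0.23, adjusted p = 0.0199). It was lost without any 1 of AL3, AL4, CR1, CR2 or CR3 (adjusted p from 0.0538 to 0.0752), and without AL1, AL2, CR1 and Tg2 (1.63, adjusted p = 0.127). Its partner Mlx was at 0.33 (adjusted p = 0.0645) and the lipogenic factor Srebf1 at 0.68 (0.058).

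Against Tg, 3 of these factors were higher in CR, against 0.735% of all probe sets. Mlxipl was 2.52-fold higher (adjusted p = 0.0224), Srebf1 1.86-fold (0.0258) and Mlx 1.31-fold (0.0411). With the replicate number as a block on all 12 arrays Mlxipl passed (adjusted p = 0.0407), and Srebf1 (0.0527) and Mlx (0.0762) did not. On the 8 CR and Tg arrays alone with the block, Srebf1 passed (0.0386), and Mlxipl (0.0506) and Mlx (0.0939) did not. None of the 3 passed without AL1, AL2, CR1 and Tg2 (0.235 to 0.28), and Mlx did not without CR4 and Tg1 (0.087). Omitting AL3, CR2, CR4, Tg2, Tg3 and Tg4 left Tg1 as the only Tg array. The differences were then 1.52 for Mlxipl, 0.76 for Srebf1 and 0.54 for Mlx. The Mlxipl call was lost without any 1 of CR1, CR2, CR3 or the 4 Tg arrays (0.053 to 0.0764), and that of Srebf1 without any 1 of CR1, CR3, Tg2, Tg3 or Tg4 (0.0599 to 0.0805). That of Mlx was lost without any 1 array other than CR4 and Tg4 (0.0519 to 0.122). In Tg against AL none passed, with Ebf1 at -0.38 and Hif1a at 0.15 (both adjusted p = 0.827).

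The genes most like Slc2a4 across the 12 arrays were ranked by the root mean square difference of log2 profiles, each centred on its own mean, among 12105 other named genes. The 5 nearest were Gys2 (0.15), Pdhb (0.16), Mrap (0.19), Mpc1 (0.21) and Tkt (0.21), against a median of 0.67 over all genes. Gys2 encodes a glycogen synthase, Pdhb a pyruvate dehydrogenase subunit, Mpc1 a subunit of the mitochondrial pyruvate carrier, and Tkt transketolase. Gys2 had the smallest distance, yet its own difference of 1.18 between CR and AL did not pass (adjusted p = 0.0593). The other 4 rose by 0.99 to 1.11.

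For Hk2 the 5 nearest were Tkt (0.21), Mrap (0.22), Gpt (0.24), Srebf1 (0.24) and Emc6 (0.25). Gpt encodes an alanine aminotransferase, and of these 5 Tkt, Mrap and Emc6 rose in CR against AL. Tkt and Mrap stood in both sets. Slc2a4 and Hk2 were 0.29 apart, rank 23 from Slc2a4 and rank 19 from Hk2. All these profiles share the same 12 arrays and the difference of CR from the other groups, so the distances are a description.

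**Figure D5:**
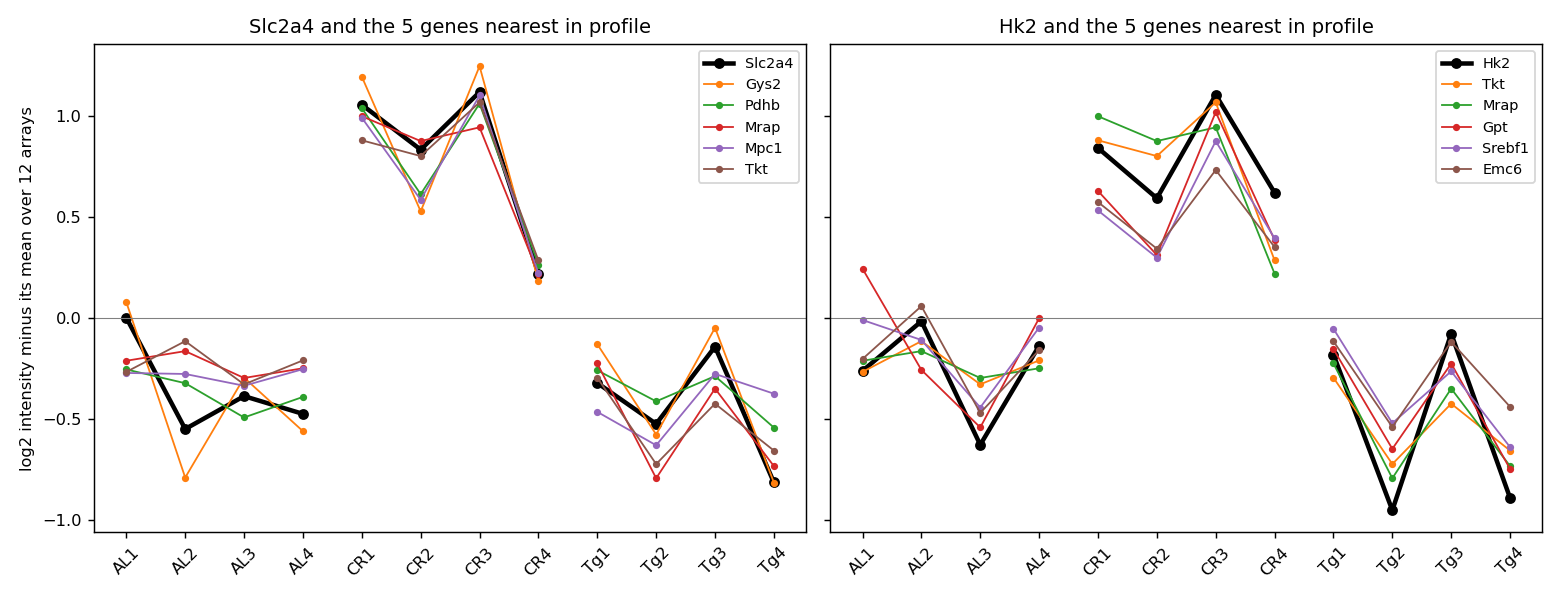
Log2 intensity minus its mean over the 12 arrays for Slc2a4 (left) and Hk2 (right), in black, and for the 5 genes nearest to each, in colour, array by array. In both panels all CR points lie above 0, and on the left CR4 is the lowest CR array for Slc2a4 and its 5 neighbours.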

How the data were processed

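Groups follow the sample titles. The authors deposited a score for each perfect-match probe, a z-score of the log10 background-subtracted intensity within each array. A second deposited table holds each array's background, saturation level, mean and SD, per the file headers. The series matrix, deposited by the authors, holds a linear intensity per probe set, with column medians from 222.6 to 239.4. Its log10 followed the mean probe z-score on every array (r from 0.987 to 0.995), in the direction of brightness and without centring of genes; the summary and scaling behind it are not given in the sources used here. Levels here are log2 of that intensity, with values under 1 to be set to 1, of which there were 0. Median polish of the z-scores is an alternative. Arrays give no read depth, and their number limits the precision.

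Tests were run in R 4.3.3 with limma 3.58.1 (lmFit with 1 mean per group, eBayes with a trend, two-sided) on all 12 arrays, after the 57 control probe sets and probe sets with a mean under the 25th percentile were left out. P-values were adjusted by Benjamini-Hochberg over the 23274 probe sets left, and a call is an adjusted p under 0.05. Each group's arrays serve 2 comparisons. Differences are of mean log2 values with the SE of the fit. The fit was tested on simulated data with independent noise and no shared transcripts of neighbouring tissues. That test cannot speak for the stability of the calls here.

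Gene names came from the platform annotation: 20832 probe sets had 1 symbol, 436 several and 9831 none, and 20764 matched a RefSeq gene of GRCr8 by gene identifier. The brightest probe set stands for a gene. Named genes are the 10 members, and of each other list up to 4 that passed in each direction or, where none passed, the 2 with the smallest p. The members, lists and markers were chosen with earlier results of these data known.

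The labels call the samples biological replicates and number them 1 to 4 in each group. Deviations from the group mean of CR and Tg arrays with the same number correlated at 0.52, 0.32, 0.47 and 0.62. This meets the rule for pairing used here (every correlation over 0.1). CR1 and CR4 correlated most with the Tg array of their own number, but CR2 did so with Tg4 and CR3 with Tg1. Markers of duct epithelium averaged 10.73 to 10.90 on CR2, CR4, Tg2 and Tg4, and 7.89 to 8.96 on the other CR and Tg arrays. The part of these transcripts in the correlations was not tested, nor was whether the numbers mark pairs of animals. The correlations of CR and AL arrays with the same number ran from -0.49 to 0.49, and those of Tg and AL from -0.30 to 0.45. The sample descriptions carry a code shared within each group and different between groups; if it marks a working session, session and group cannot be told apart.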

Additional observations from a re-analysis of the deposited data

Results flagged for a closer look

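Each of the 10 genes was checked in each of the 3 groups for an array far from the other 3, by Dixon's test at its 95% critical value, which chance passes in about 1 of 20 groups. Of these 30 gene and group pairs, 1 was past it. Hk1 stood at 11.23 on Tg2, against 10.39 to 10.42 on the other Tg arrays, and the gap made up 0.961 of the range. The spermatid markers averaged 12.52 on Tg2 and 6.31 to 7.25 on the other Tg arrays; their part in the Hk1 value was not tested.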

How the results depend on the processing

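Of 25 alternatives in the comparison with AL and 26 in that with Tg, 0 turned the sign of Slc2a4, Hk2 or Aldoa. Against AL, Slc2a4 kept its call in 18 of 26 settings, counting a second probe set (1.06 to 1.43), Hk2 in 10 of 25 (0.93 to 1.20) and Aldoa in 10 of 25 (0.35 to 0.45). Against Tg they kept it in 19 of 27, 18 of 26 and 22 of 26. The count of members past the threshold in CR against AL, 3 in the text, was 1 with no filter on dim probe sets, 1 with the replicate block, 0 with the 8 arrays of both groups alone and 0 without AL1, AL2, CR1 and Tg2, and 0 to 3 with 1 array left out. In CR against Tg it was 0 with the 8 arrays alone, 0 without AL1, AL2, CR1 and Tg2 and 1 to 3 with 1 array left out. No count is given there without AL3, CR2, CR4, Tg2, Tg3 and Tg4, since Tg1 was then the only Tg array. The last set of arrays, and the block on the CR and Tg arrays alone, were chosen after seeing the data. Settings with fewer arrays have fewer samples to estimate the spread from; the cause of the other changes was not tested.

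Probe sets called in CR against AL, 338 in the text, numbered 203 with no filter, 221 without a variance trend, 52 with the 8 arrays alone, 150 with the replicate block, 1598 with the marker scores as covariates, 2 without AL1, AL2, CR1 and Tg2, 116 without AL3, CR2, CR4, Tg2, Tg3 and Tg4, and 44 to 283 with 1 array left out. In CR against Tg, 291 in the text, they numbered 179 with each array centred on its median, 189 without a trend, 20 with the 8 arrays alone, 119 with the replicate block, 95 with the replicate block on the CR and Tg arrays alone, 1407 with the covariates, 0 without AL1, AL2, CR1 and Tg2, 41 without AL3, CR2, CR4, Tg2, Tg3 and Tg4, and 40 to 468 with 1 array left out. In Tg against AL, 0 in the text, they numbered 2 with median polish, 16 without AL3, CR2, CR4, Tg2, Tg3 and Tg4, and 0 to 2 with 1 array left out. Without AL3, CR2, CR4, Tg2, Tg3 and Tg4, Tg1 was the only Tg array, so the counts of 16 and 41 rest on 1 Tg array with no spread of its own. Pancreas markers averaged 12.88 on Tg1 and 6.62 to 7.28 on the other arrays. The part of pancreas transcripts in these 2 counts was not tested, and they are not read as differences due to the transgene. CR and AL, and Tg and AL, share the replicate numbers. Their arrays of the same number deviated together for some numbers only (correlations from -0.49 to 0.49 and from -0.30 to 0.45). With the replicate block Slc2a4 kept its call against AL, and Hk2 (adjusted p = 0.0757), Aldoa (0.0688) and Slc2a13 (0.0715) did not.

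Some differences changed sign, none of them past the threshold in the text or in the setting named; in the text the widest were Slc2a1 at 0.42 in CR against AL and 0.44 in Tg against AL, and Hk1 at -0.32 in CR against Tg. With the marker scores as covariates, Slc2a1 was at -0.0005 in CR against AL, -0.1029 in Tg against AL and 0.1024 in CR against Tg, and Slc2a4 at 0.096 in Tg against AL. Without AL1, AL2, CR1 and Tg2, Slc2a4 was at 0.0048 in Tg against AL and Slc2a1 at 0.3058 in CR against Tg. Without AL3, CR2, CR4, Tg2, Tg3 and Tg4, Tg1 was the only Tg array. Tg against AL then gave 0.0195 for Slc2a4, -0.0453 for Ldha and 0.002 for Srebf1. With median polish, Tg against AL gave -0.0025 for Pgk1 and -0.0706 for Ldha, and CR against Tg gave 0.0211 for Slc2a1, which was 0.0151 after quantile normalization. The other probe sets gave -0.0293 for Pgk1 in Tg against AL and 0.1253 for Hk1 in CR against Tg. With 1 array left out, Tg against AL ran from -0.201 to 0.0232 for Slc2a4, -0.1376 to 0.0552 for Pfkl and -0.0573 to 0.2029 for Mlxipl, and CR against Tg from -0.2423 to 0.1991 for Slc2a1.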
